A study of Mus musculus with 6 samples.

Results

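The 44 collagen genes of the mouse were read from an RNA-seq table of embryos with the Rnf111 S254D knock-in (KI, 3 libraries) and without it (WT, 3 libraries). The members are all genes, of 21877 symbols, whose symbol has the form Col, a number, a and a number. By class they are 11 fibrillar genes, 6 basement membrane genes (type IV), 9 FACIT genes (fibril-associated collagens with interrupted triple helices) and 18 others. The labels give the tissue as embryo and the stage as E7.5 (embryonic day 7.5) in both groups. Rnf111, also called Arkadia, is a ubiquitin ligase known to amplify Nodal and TGF-beta signals. The sources used here give no strain, zygosity, sex, litter or pooling of embryos, so p-values measure only the spread between these libraries, which may be partly technical.

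Collagens are secreted or membrane-bound proteins whose chains wind around each other into a triple helix. Fibrillar collagens such as types I and III form the cables of connective tissue, type IV collagens form the sheet-like network of basement membranes, and FACIT collagens sit on the surface of fibrils. In the early embryo type IV collagen underlies epithelia, fibrillar collagens build up as mesenchyme, notochord and somites form, and TGF-beta is a textbook inducer of type I collagen genes.

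Values are RPKM, which divides the reads of a gene by its exon length and by library depth. The implied depth was lowest in KI 2 (9763000 reads) and highest in WT 3 (13559000). Still, 8912 genes reached 1 RPKM in WT 3, against 9738 to 10148 in the other libraries. WT 3 stood apart on the first principal component (61.5% of the variance) and KI 2 on the second (25.1%). Rnf111 itself was at 1.74, 2.53 and 2.12 RPKM in WT 1, 2 and 3 and at 1.98, 2.57 and 1.50 in KI 1, 2 and 3, which overlapped, and its level does not check a knock-in that changes the protein. The 10 visceral and yolk sac endoderm markers, none at 0 throughout, summed to 452, 457 and 1250 RPKM in WT 1, 2 and 3. In KI 1, 2 and 3 they summed to 561, 12.9 and 674 RPKM. The 4 Y-linked genes summed to 0 in KI 3, 7.29 in KI 1 and 41.0 to 62.0 in the other 4. As to the labelled stage, all 10 listed organogenesis markers were high enough to test and 8 of 10 gastrula markers were not, with Pou5f1 and Eomes, of the epiblast and primitive streak, at no more than 0.0386 and 0.0835 RPKM. The other 2, the streak genes T and Mixl1, were at 6.24 to 12.5 and 2.72 to 17.0 RPKM. Of the 10 organogenesis markers, 9 had a negative KI minus WT difference, 1 a positive one, and 0 passed over all 6 libraries. In WT 3, 7 of the 10 were below the mean of WT 1 and WT 2. Hoxd10 was at 4.42, 3.82 and 0.609 RPKM in WT 1, 2 and 3. In KI 1, 2 and 3 it was at 1.24, 1.41 and 0.812. In the same order Mixl1 was at 4.58, 3.68 and 17.0 in WT and at 7.84, 2.72 and 8.66 in KI. Whether the libraries differ in developmental age was not tested.

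Start regions are shown for 4 genes of the chain ratios given in the results. Of those chains, Col1a1 is named only. They are RefSeq windows from 250 bases before to 50 bases after the gene start, on build GRCm38.p6, printed 5′ to 3′ on the strand of the gene. RefSeq windows matched 35 of the 44 collagen genes (38 windows). Col1a2 (chr6:4505368-4505667, plus strand) and Col3a1 (chr1:45311288-45311587, plus strand) encode fibrillar chains. Capitals mark matches, on either strand, to the CCAAT box, to the letters TATAA of a TATA box, to the letters GGGCGG of a GC box and to CAGAC, the core of a Smad-binding site.
Col1a2: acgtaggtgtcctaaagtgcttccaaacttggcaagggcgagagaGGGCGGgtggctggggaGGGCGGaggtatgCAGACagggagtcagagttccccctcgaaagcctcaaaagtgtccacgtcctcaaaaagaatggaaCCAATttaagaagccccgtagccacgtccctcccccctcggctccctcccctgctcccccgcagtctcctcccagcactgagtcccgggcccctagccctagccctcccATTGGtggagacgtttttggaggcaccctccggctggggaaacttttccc
Col3a1: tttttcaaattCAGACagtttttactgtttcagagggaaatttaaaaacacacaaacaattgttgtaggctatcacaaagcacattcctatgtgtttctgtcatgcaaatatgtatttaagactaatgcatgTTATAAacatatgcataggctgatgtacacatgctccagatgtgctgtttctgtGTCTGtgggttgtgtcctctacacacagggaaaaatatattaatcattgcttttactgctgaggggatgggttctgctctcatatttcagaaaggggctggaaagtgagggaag
The Col1a2 window held 2 matches to the CCAAT box, 2 to the GC box and 1 to CAGAC. The Col3a1 window held 2 matches to the TATA letters, overlapping on opposite strands, and 2 to CAGAC. G and C made up 61% of the Col1a2 letters and 37.7% of the Col3a1 letters. Of all 32851 windows of this length, 37.4% held the CCAAT box, 24.9% the TATA letters, 35.7% the GC box letters and 49.6% CAGAC. Of the 38 collagen windows, 34.2%, 18.4%, 60.5% and 52.6% held them, in the same order.

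The basement membrane genes Col4a1 (chr8:11312777-11313076, minus strand) and Col4a2 (chr8:11312555-11312854, plus strand) start beside each other on opposite strands. Their windows share 78 bases, shown in capitals, and G and C made up 74% and 73.7% of the letters.
Col4a1: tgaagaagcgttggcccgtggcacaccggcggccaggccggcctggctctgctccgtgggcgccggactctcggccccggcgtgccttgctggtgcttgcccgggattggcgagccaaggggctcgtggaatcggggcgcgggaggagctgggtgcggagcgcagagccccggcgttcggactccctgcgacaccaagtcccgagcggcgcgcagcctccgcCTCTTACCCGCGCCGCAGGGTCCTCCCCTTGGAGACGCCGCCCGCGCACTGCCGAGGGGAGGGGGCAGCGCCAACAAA
Col4a2: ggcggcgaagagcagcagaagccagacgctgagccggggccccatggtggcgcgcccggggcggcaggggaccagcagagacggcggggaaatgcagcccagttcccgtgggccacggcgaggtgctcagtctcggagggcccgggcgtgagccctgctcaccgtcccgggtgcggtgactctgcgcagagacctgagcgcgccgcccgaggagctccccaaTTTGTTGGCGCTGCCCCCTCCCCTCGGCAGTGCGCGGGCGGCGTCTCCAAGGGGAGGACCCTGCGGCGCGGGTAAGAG

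Collagen transcripts were at low to moderate levels in all 6 libraries. No member had a mean of 20 RPKM, and the highest single value was 10.1 RPKM, for Col1a1 in WT 2. The minimum for the test, 1 RPKM in at least 3 libraries, was met by 14 of the 44 genes, namely 6 of 11 fibrillar, 4 of 6 basement membrane, 1 of 9 FACIT and 3 of 18 other genes. Of all 21877 symbols, 10104 met that minimum. The median tested gene was at 2.49 to 2.97 log2(RPKM + 1) by library. Col1a1 lay above the median of its library in WT 1 and WT 2, and below it in WT 3 and in KI 1, 2 and 3. By mean RPKM over all libraries the order was Col1a1 (5.81), Col3a1 (5.63), Col4a1 (5.48), Col18a1 (5.46), Col2a1 (4.67), Col1a2 (4.22), Col23a1 (4.14) and Col9a1 (3.30), and the ranges of neighbours overlapped. This order depends on gene length. The RPKM of Col1a2 is divided by a merged exon length of 12426 bases, while its longest coding transcript has 5348. Per kilobase of the longest coding transcript the first were Col3a1 (9.93), Col1a2 (9.79) and Col2a1 (8.47), ahead of Col1a1 (6.43).

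**Figure D1:**
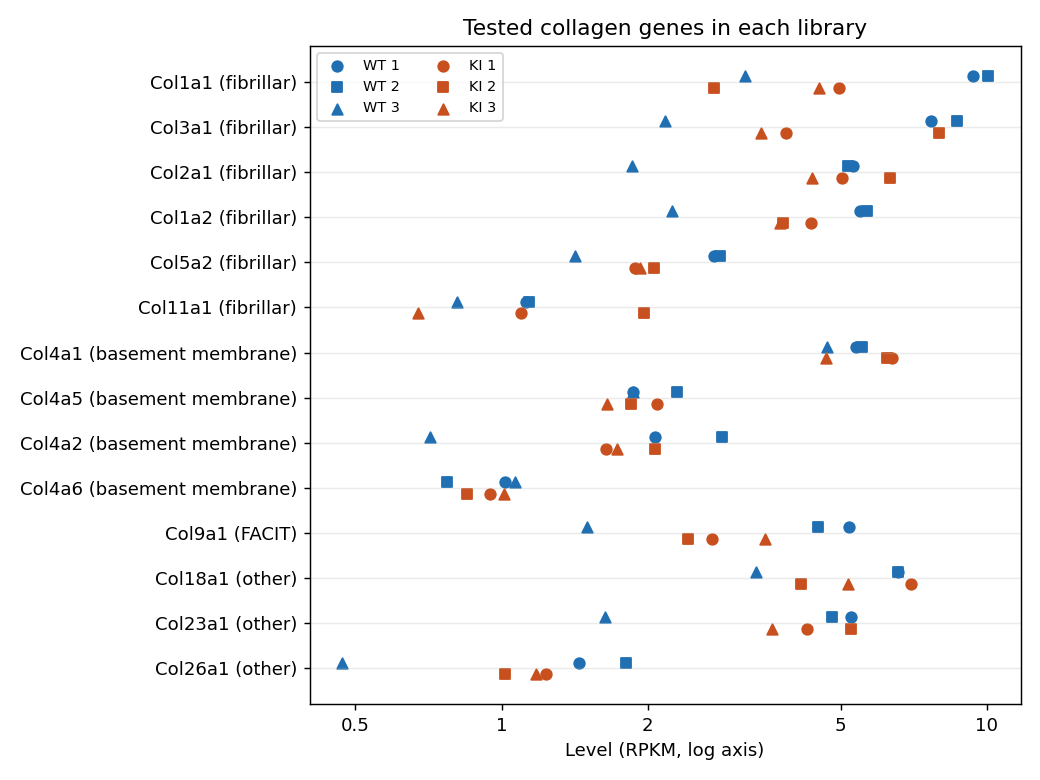
Level of each of the 14 tested collagen genes in each library, in RPKM on a log axis, with colour giving the group and marker shape the replicate. WT 3 is the lowest of the 6 libraries for 9 of the 14 genes, and KI and WT values overlap for all 14.

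Of the 30 collagen genes too low for the test, Col5a1 (0.612 to 1.33 RPKM), a fibril-nucleating type V chain, and Col27a1 (0.713 to 1.10) reached 1 RPKM in 1 or 2 libraries. Another 18 peaked between 0.1 and 1 RPKM. Among them, Col6a1, Col6a2 and Col6a3, chains of the beaded-filament collagen of many connective tissues, reached at most 0.480, 0.219 and 0.237 RPKM. The type IV chain genes Col4a3 and Col4a4, known from the kidney glomerulus, reached at most 0.103 and 0.306, and Col7a1, the anchoring fibril collagen of skin, 0.182. In the FACIT class Col12a1, Col14a1, Col16a1, Col20a1 and Col22a1 peaked at 0.356, 0.585, 0.270, 0.159 and 0.223 RPKM. Col13a1 (0.817) and Col25a1 (0.230), transmembrane collagens, Col15a1 (0.226), a relative of Col18a1, and the fibrillar Col11a2 (0.114) and Col24a1 (0.203) peaked in the same band.

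The other 10 peaked under 0.1 RPKM, namely Col5a3, Col6a4, Col6a5, Col6a6, Col8a1, Col8a2, Col10a1, Col17a1, Col19a1 and Col28a1. Col10a1, the collagen of hypertrophic cartilage, had 0 to 3 reads per library, and Col17a1, of hemidesmosomes, had 0 to 8 reads. Col6a5 had no read in any library, which still allows up to 3 reads in each.

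Fibrillar genes made up the largest share of the collagen total in each library. The RPKM of all 44 genes summed to 66.7, 68.6 and 30.8 in WT 1, 2 and 3 and to 53.1, 53.5 and 45.5 in KI 1, 2 and 3. Fibrillar genes gave 51.3%, 52.5% and 43.2% of these sums in WT 1, 2 and 3, against 43.9%, 50.6% and 45.0% in KI 1, 2 and 3. Basement membrane genes gave 15.8%, 17.1% and 28.3% in WT 1, 2 and 3, against 21.1%, 20.8% and 20.4% in KI 1, 2 and 3. WT 3 had the smallest sum, the smallest fibrillar share and the largest basement membrane share.

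**Figure D2:**
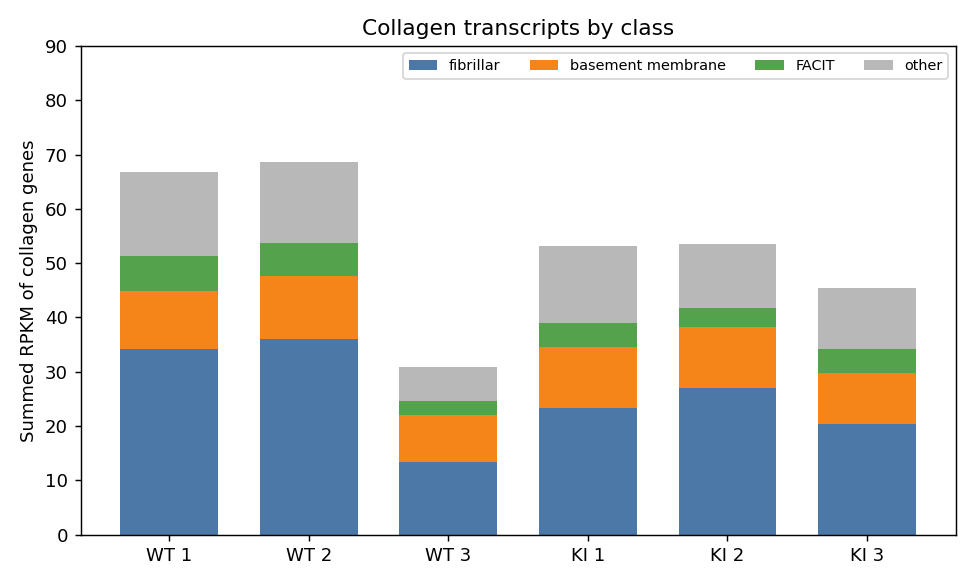
Summed RPKM of the 44 collagen genes in each library, stacked by class. WT 3 has the lowest sum (30.8) and WT 1 and WT 2 the highest (66.7 and 68.6), with the 3 KI libraries between them.

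Type I collagen transcripts were less abundant in each KI library than in WT 1 and WT 2, and WT 3 was among the low libraries. Col1a1, which encodes the major chain of type I collagen, was at 9.37, 10.1 and 3.18 RPKM in WT 1, 2 and 3 and at 4.97, 2.75 and 4.52 in KI 1, 2 and 3, from 176 to 838 reads. WT 3 lay between KI 2 and KI 3, so the groups overlapped. The means were 7.54 ± 3.79 in WT and 4.08 ± 1.17 in KI (SD, n = 3 each), a KI mean 0.541 times that of WT. On the log2(RPKM + 1) scale, which understates changes of low genes and is the scale of all differences given here other than those of chain ratios, which are on plain log2 RPKM, KI minus WT was -0.65 (SE 0.40, 95% interval -1.60 to 0.29; limma adjusted p = 0.999). Without WT 3 and KI 2 it was -0.90 (interval -1.16 to -0.64, limma adjusted p = 0.0286).

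Col1a2, the partner chain, was at 5.47, 5.68 and 2.25 RPKM in WT 1, 2 and 3 and at 4.34, 3.81 and 3.74 in KI 1, 2 and 3. Again KI lay below WT 1 and WT 2 and above WT 3. The difference was -0.07 (95% interval -0.77 to 0.63), and without WT 3 and KI 2 it was -0.39 (interval -0.67 to -0.10, limma adjusted p = 0.306).

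Col3a1, the chain of type III collagen that accompanies type I in vessels and loose mesenchyme, split the KI libraries. It was at 7.69, 8.67 and 2.17 RPKM in WT 1, 2 and 3 and at 3.86, 7.97 and 3.42 in KI 1, 2 and 3. KI 2 stood with WT 1 and WT 2, at 2.19 times the mean of KI 1 and KI 3, whereas Col1a1 in KI 2 was 0.579 times that mean. The difference was -0.16 over all libraries (95% interval -1.27 to 0.96, limma adjusted p = 0.999) and -0.98 without WT 3 and KI 2 (interval -1.27 to -0.70, limma adjusted p = 0.0289). Some exon positions of Col3a1 are shared with the annotated gene Gm47302 on the same strand.

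The remaining fibrillar genes gave no called difference in either fit. Col2a1, the collagen of cartilage and notochord, was at 5.30, 5.17 and 1.86 RPKM in WT 1, 2 and 3 and at 5.03, 6.32 and 4.37 in KI 1, 2 and 3, with a difference of 0.36 (interval -0.42 to 1.15) that turned to -0.13 without WT 3 and KI 2. WT 3 was low and the other 5 libraries lay closer together. Col5a2, a type V chain that helps start fibrils, was at 2.75, 2.82 and 1.41 in WT 1, 2 and 3 and at a narrow 1.88, 2.06 and 1.93 in KI 1, 2 and 3, and its difference was -0.14 (interval -0.65 to 0.37). Col11a1, a type XI chain of cartilage fibrils, was at 1.13, 1.14 and 0.810 in WT 1, 2 and 3 and at 1.10, 1.97 and 0.674 in KI 1, 2 and 3 (difference 0.11, interval -0.44 to 0.66). Its KI 2 value was 2.22 times the mean of KI 1 and KI 3, the library in which Col3a1 was also high. The groups overlapped for each of these 3 genes.

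Among basement membrane genes Col4a2 varied most. Col4a1, which encodes the chain that pairs with it in most basement membranes, was at 5.39, 5.54 and 4.69 RPKM in WT 1, 2 and 3 and at 6.37, 6.24 and 4.67 in KI 1, 2 and 3 (402 to 547 reads). The groups overlapped and the difference was 0.12 (95% interval -0.32 to 0.56). Col4a2 was at 2.08, 2.85 and 0.713 in WT 1, 2 and 3 and at 1.64, 2.07 and 1.73 in KI 1, 2 and 3, with a difference of 0.04 (interval -0.66 to 0.75). WT 3 had 64 reads of Col4a2, and its RPKM was 0.290 times the mean of WT 1 and WT 2, while its Col4a1 was at 0.859 times that mean. Exons of this pair overlap on opposite strands in the annotation, and without knowledge of strand in the counting, reads there cannot be told apart.

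The X-linked type IV chain genes differed little between libraries, as did Col4a1. Col4a5 was at 1.87, 2.30 and 1.87 RPKM in WT 1, 2 and 3 and at 2.10, 1.84 and 1.65 in KI 1, 2 and 3 (difference -0.07, interval -0.45 to 0.31). Col4a6 was at 1.02, 0.772 and 1.06 in WT 1, 2 and 3 and at 0.948, 0.848 and 1.01 in KI 1, 2 and 3 (difference -0.01, interval -0.37 to 0.35), from 66 to 115 reads. Their standard errors were 0.16 and 0.15, against 0.19 for Col4a1. With a pseudocount of 0.1 they were 0.24 and 0.30, against 0.22 for Col4a1, so their order depends on the scale. In WT 3 Col4a6 was at 1.19 times the mean of WT 1 and WT 2, the only tested member above it.

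Among FACIT genes only Col9a1, a type IX chain that coats cartilage fibrils, could be tested. It was at 5.21, 4.48 and 1.50 RPKM in WT 1, 2 and 3 and at 2.71, 2.43 and 3.49 in KI 1, 2 and 3. As with Col1a2, KI lay between WT 3 and the other WT libraries, and the difference was -0.19 (95% interval -1.02 to 0.63) and -0.52 without WT 3 and KI 2 (limma adjusted p = 0.236). Its partners Col9a2 and Col9a3 did not exceed 0.218 and 0.406 RPKM.

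Of the other classes, Col18a1, a basement membrane collagen and the source of endostatin, was at 6.56, 6.55 and 3.35 RPKM in WT 1, 2 and 3 and at 6.97, 4.14 and 5.18 in KI 1, 2 and 3 (difference 0.01, interval -0.66 to 0.68). Col23a1, a transmembrane collagen, was at 5.26, 4.80 and 1.63 in WT 1, 2 and 3 and at 4.26, 5.25 and 3.61 in KI 1, 2 and 3 (difference 0.22, interval -0.60 to 1.04). Col26a1 was at 1.44, 1.80 and 0.469 in WT 1, 2 and 3 and at 1.23, 1.01 and 1.18 in KI 1, 2 and 3 (difference -0.01, interval -0.61 to 0.59). WT 3 was the lowest library for each of these 3 genes, and their groups overlapped.

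No collagen gene passed the threshold between KI and WT over all 6 libraries. In limma, with p-values adjusted by Benjamini-Hochberg over 10104 tested genes, 0 of 14 collagen genes passed 0.05, and so did 0 genes in all (0%). Limma-voom on the recovered reads gave 0 too. At an unadjusted p under 0.05 there were 0 of 14 collagen genes, against 1.2% of all tested genes. The difference was positive in 6 of the 14 genes and negative in 8, with a median of -0.01, where all tested genes had a median of 0.05 and 58.8% were positive. The widest intervals were those of Col3a1 (-1.27 to 0.96) and Col1a1 (-1.60 to 0.29). These intervals are not adjusted for the number of genes tested. They show which differences these libraries still allow, not the smallest change that could have been called.

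**Figure D3:**
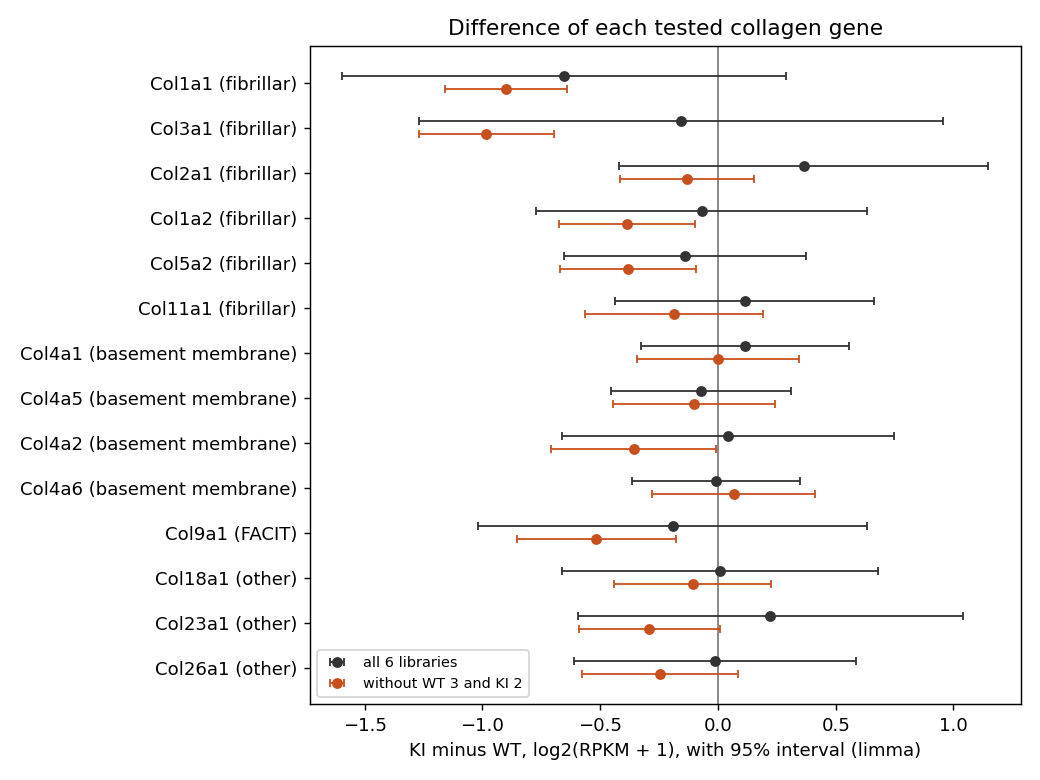
KI minus WT difference on the log2(RPKM + 1) scale for the 14 tested collagen genes, with 95% intervals from limma, over all 6 libraries and without WT 3 and KI 2. Every interval over all libraries includes 0, and without both libraries Col1a1 (-0.90) and Col3a1 (-0.98) lie furthest below it.

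Without WT 3 and KI 2, 2 of 14 collagen genes, Col1a1 and Col3a1, were called lower in KI, against 0.406% of all tested genes called and 0.228% called lower. In that setting 12 of 14 collagen differences were negative, including all 6 of the fibrillar genes, where 55.7% of all tested genes were negative. So were 13 of 16 tested chain modification and folding genes, all 5 for propeptide processing and cross-linking and all 4 collagen receptor genes. Endothelial markers (6 of 6) and mesenchyme markers (8 of 9) were mostly negative too. Collagen breakdown genes (3 of 6), parietal endoderm markers (8 of 14) and visceral and yolk sac endoderm markers (1 of 9) were less so. The median was -0.27 for the 14 collagen genes and -0.38 for the fibrillar genes, against -0.02 for all genes. WT 3 was below the mean of WT 1 and WT 2 in 13 of 14 collagen genes, including all 6 fibrillar genes (70.1% of all tested genes). Leaving it out raises the WT means of these genes, so a shift to negative differences is partly built in. For Col3a1, WT 3 was the lowest library (2.17 RPKM) and KI 2 the highest in KI (7.97), so both left-out values went against the call. Without WT 3 alone 11 of 14 were negative (63.1% of all tested genes) and 0 were called. With libraries weighted by their spread Col1a1 (limma adjusted p = 0.0361) and Col3a1 (limma adjusted p = 0.0442) were called lower, where 0.92% of all tested genes were called and 0.574% as lower. These weights were lowest for the same libraries, WT 3 (0.110) and KI 2 (0.395), and highest for KI 1 (7.75) and WT 2 (3.42), and their estimate did not converge, so this is not separate evidence. Between the 4 libraries left without WT 3 and KI 2, Y-linked sums were 41.0 and 42.5 RPKM in WT and 7.29 and 0 in KI, so genotype and sex of the embryos cannot be told apart there.

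All 3 KI values lay below both WT 1 and WT 2 for 6 of 14 tested genes (Col1a1, Col1a2, Col4a2, Col5a2, Col9a1 and Col26a1), against 15.8% of all tested genes. That count leaves out WT 3, which was below the mean of WT 1 and WT 2 in 13 of 14 collagen genes (70.1% of all tested genes). A higher count is thus partly built in. Over the complete groups, KI overlapped WT in all 14 tested collagen genes, where 6.54% of all tested genes did not overlap (2.74% lower and 3.8% higher in KI). Of the 29 untested genes with a value above 0, 2 (Col4a4 and Col8a1) had separate groups, both lower in KI, at very low levels. Of all 7320 untested genes with a value above 0, 7.19% had separate groups and 2.73% were lower in KI, so the collagen count lies near the background. Col4a4 was at 0.149, 0.156 and 0.306 RPKM in WT 1, 2 and 3 and at 0.123, 0.0869 and 0.139 in KI 1, 2 and 3, from 9 to 44 reads. Col8a1, a short-chain collagen of vessel and corneal matrix, had 9, 6 and 3 reads in WT 1, 2 and 3, against 2, 0 and 1 in KI 1, 2 and 3.

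Within WT, library 3 held less collagen transcript than the other 2. The level in WT 3 was below the mean of WT 1 and WT 2 in 13 of 14 collagen genes, where 70.1% of all tested genes were below it, and the median log2 difference was -0.92 for collagen genes and -0.33 for all genes. It was -1.07 for the fibrillar genes and -0.14 for the basement membrane genes. Col3a1 in WT 3 was at 0.265 times, Col26a1 at 0.289 times and Col9a1 at 0.309 times the mean of WT 1 and WT 2. In KI 2, 7 of 14 collagen genes were below the mean of KI 1 and KI 3, where 58.9% of all tested genes were. The visceral and yolk sac endoderm markers summed to 1250 RPKM in WT 3, against 452 and 457 in WT 1 and WT 2. The part of this in the collagen values was not tested. In bulk embryos, fewer cells of a type and less RNA per cell cannot be told apart.

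The ratio of the type I chains did not overlap between the genotypes, in a design too small for p to pass 0.05. The RPKM ratio of Col1a1 to Col1a2 stood at 1.71, 1.77 and 1.41 in WT 1, 2 and 3 and at 1.14, 0.721 and 1.21 in KI 1, 2 and 3. WT 3, in which both genes were low, had a ratio above that of each KI library. The mean log2 ratio was 0.70 ± 0.18 in WT and -0.0018 ± 0.41 in KI (SD, n = 3 each), a KI minus WT difference of -0.70 (exact two-sided permutation p = 0.1, the smallest that 20 arrangements of 3 against 3 allow, and 0.2 after Benjamini-Hochberg adjustment over the 2 ratios tested). Of 10065 other tested genes with a value above 0 in all libraries, 12.9% had a ratio to Col1a2 without overlap and 0.427% one that was lower in KI. Read per kilobase of the longest coding transcript the ratios were 0.673 to 0.845 in WT and 0.344 to 0.575 in KI, so the choice of length decides whether Col1a1 exceeds Col1a2, and it scales all 6 ratios alike. KI 2, the lowest, also stood alone in the ratio of Col1a1 to Col3a1, at 0.345 against 1.16 to 1.46 in the other 5 libraries.

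For the type IV pair the ratio of Col4a1 to Col4a2 stood at 2.60, 1.94 and 6.58 in WT 1, 2 and 3 and at 3.88, 3.01 and 2.70 in KI 1, 2 and 3. Col4a1 had the higher RPKM in all 6 libraries, and WT 3 had the highest ratio. The KI minus WT difference of the log2 ratio was -0.02 (exact two-sided permutation p = 1, and 1 after adjustment over the 2 ratios), and without WT 3 it was 0.49. Of the same 10065 genes, 2.4% had a ratio to Col4a2 without overlap and 0.328% one that was lower in KI. The ratio of Col4a5 to Col4a6 stood at 1.84, 2.98 and 1.75 in WT 1, 2 and 3 and at 2.21, 2.18 and 1.63 in KI 1, 2 and 3, which overlapped and was not tested.

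**Figure D4:**
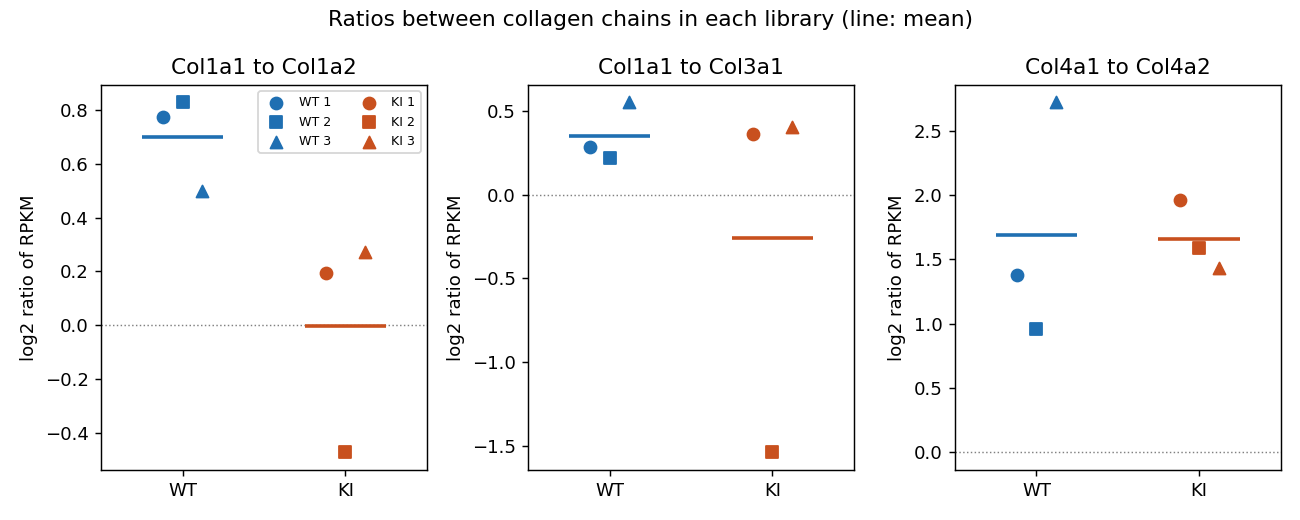
Log2 ratio of RPKM between collagen chains in each library, with the group mean as a line. For Col1a1 to Col1a2 the 3 WT libraries lie above the 3 KI libraries, for Col1a1 to Col3a1 KI 2 lies alone, and for Col4a1 to Col4a2 the groups overlap, with WT 3 the highest.

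Genes that modify, fold and export collagen chains gave no call. Of 19 listed genes 16 were tested, 0 passed in either direction, and 11 differences were positive and 5 negative (median 0.13, against 0.05 for all genes). Without WT 3 and KI 2, 13 of the 16 were negative (median -0.13, against -0.02 for all genes). P4hb, the protein disulphide isomerase subunit of prolyl 4-hydroxylase, was at 265, 268 and 149 RPKM in WT 1, 2 and 3 and at 267, 226 and 255 in KI 1, 2 and 3. Serpinh1, the collagen chaperone Hsp47, was at 185, 221 and 35.0 in WT 1, 2 and 3 and at 179, 115 and 114 in KI 1, 2 and 3. WT 3 was the lowest library for both, and the groups overlapped. The prolyl isomerase gene Ppib had means of 29.4 ± 5.51 in WT and 28.2 ± 1.21 in KI, and the hydroxylase subunit gene P4ha1 had means of 27.1 ± 7.21 and 26.7 ± 6.87 (SD, n = 3 each). All 16 were lower in WT 3 than the mean of WT 1 and WT 2.

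Of 13 genes for propeptide removal and cross-linking 5 were tested and 0 passed (3 positive, 2 negative). Without WT 3 and KI 2 all 5 were negative (median -0.24). Loxl2, a lysyl oxidase that cross-links collagen, was at 3.22, 3.11 and 2.33 RPKM in WT 1, 2 and 3 and at 1.88, 2.08 and 1.88 in KI 1, 2 and 3. All 3 KI values were below the 3 WT values (difference -0.39, SE 0.17, limma adjusted p = 0.999), as in 2.74% of all tested genes. Pcolce, an enhancer of procollagen processing, was at 6.21, 5.49 and 0.926 in WT 1, 2 and 3 and at 2.84, 4.37 and 3.38 in KI 1, 2 and 3. As with Col1a2, its KI values lay between WT 3 and the other WT libraries. Pcolce2 had means of 1.73 ± 0.524 in WT and 1.69 ± 0.575 in KI, and Adamts3, a procollagen peptidase, had means of 1.46 ± 0.668 and 1.93 ± 0.915 (RPKM, SD, n = 3 each). Bmp1, the procollagen C-proteinase gene, was at 1.37, 1.25 and 0.391 in WT 1, 2 and 3 and at 0.970, 1.26 and 0.949 in KI 1, 2 and 3. The groups overlapped for these 3 genes, and Lox itself did not exceed 0.407 RPKM.

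Among 8 collagen receptor genes 4 were tested and 0 passed (3 positive, 1 negative). Without WT 3 and KI 2 all 4 were negative (median -0.17). The integrin beta chain gene Itgb1 had means of 53.9 ± 9.19 RPKM in WT and 46.1 ± 7.04 in KI (SD, n = 3 each). The collagen-binding kinase genes Ddr1 (2.11 ± 1.22 and 2.14 ± 0.663) and Ddr2 (1.98 ± 0.582 and 2.27 ± 0.687) and the endocytic receptor gene Mrc2 (0.886 ± 0.144 and 0.984 ± 0.251) had groups that overlapped. The collagen-binding integrin chain genes Itga1, Itga2, Itga10 and Itga11 fell below the minimum, with highest values of 0.564, 0.258, 0.168 and 0.473 RPKM.

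Of 10 genes for collagen breakdown and its inhibition 6 were tested and 0 passed (5 positive, 1 negative). Without WT 3 and KI 2, 3 were positive and 3 negative (median -0.05). The gelatinase gene Mmp2 was at 13.4, 14.0 and 4.84 RPKM in WT 1, 2 and 3 and at 12.5, 11.2 and 12.6 in KI 1, 2 and 3, with WT 3 alone low. The inhibitor gene Timp1 was at 8.96, 8.26 and 7.89 in WT 1, 2 and 3 and at 4.21, 8.42 and 4.69 in KI 1, 2 and 3. KI 2 stood with WT for Timp1, as it did for Col3a1. Without WT 3 and KI 2 Timp1 was called lower (difference -0.82, limma adjusted p = 0.0444), as 0.228% of all tested genes were. In that fit genotype and sex of the embryos cannot be told apart. Timp3 (4.41 ± 1.52 in WT, 6.38 ± 1.61 in KI) and the membrane-bound collagenase gene Mmp14 (1.90 ± 0.979 and 2.12 ± 0.199) had groups that overlapped (RPKM, SD, n = 3 each). The secreted collagenase genes Mmp8 and Mmp13 were listed at 0 in all 6 libraries.

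**Figure D5:**
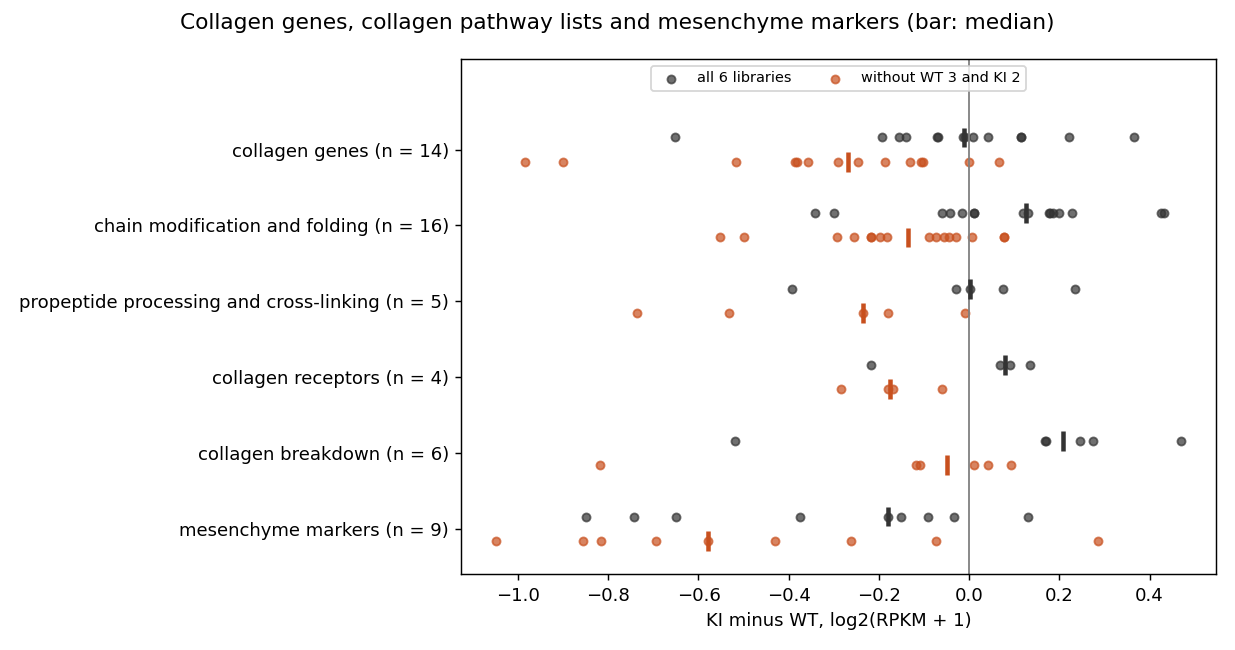
KI minus WT difference on the log2(RPKM + 1) scale for tested collagen genes, collagen pathway lists and mesenchyme markers, over all 6 libraries and without WT 3 and KI 2. Each point is a gene and each bar a median, which for the collagen genes is -0.01 over all libraries and -0.27 without both.

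Of 10 mesenchyme markers, from cells known to make fibrillar collagen, 9 were tested, 8 with a negative difference, 0 passed, and none was at 0. Their RPKM summed to 132, 137 and 94.3 in WT 1, 2 and 3 and to 76.6, 107 and 78.4 in KI 1, 2 and 3. Lum alone made up much of these sums, and the other 9 summed to 58.3, 62.9 and 37.9 in WT 1, 2 and 3 and to 45.7, 55.5 and 38.5 in KI 1, 2 and 3, so that WT 3 was then the lowest library. Lum, which encodes the fibril-binding proteoglycan lumican, was at 73.6, 73.6 and 56.4 in WT 1, 2 and 3 and at 30.8, 51.5 and 39.9 in KI 1, 2 and 3, and Postn, which encodes periostin, was at 6.31, 6.22 and 3.75 and at 3.14, 1.66 and 2.90. Both had separate groups, lower in KI, as 2.74% of all tested genes did. Without WT 3 and KI 2 both were called lower (limma adjusted p = 0.0272 and 0.0391), as 0.228% of all tested genes were. In KI 2 Vim (30.8) and Twist1 (7.30) were at their highest of the 6 libraries, as Col11a1 was, while Pdgfra (2.63) was at its lowest. The part of these shifts in the collagen values was not tested.

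Parietal endoderm markers, from cells known to secrete much type IV collagen, were all high enough to test, with 9 of 14 differences negative and 0 passed. Their RPKM summed to 94.3, 101 and 72.3 in WT 1, 2 and 3 and to 96.3, 67.3 and 91.6 in KI 1, 2 and 3. In KI 2, 10 of the 14 markers were below the mean of KI 1 and KI 3, while Sparc, Nid1, Thbd and Fst were above it. Col4a1 was at 6.24 RPKM in KI 2, where the sum of the list was lowest, and how they relate was not tested. Of 7 endothelial markers 6 were tested (3 positive, 3 negative), with sums of 13.8 to 25.1 RPKM in WT and 18.6 to 20.6 in KI. Of 12 decidua and uterine stroma markers 2 were tested, both with a negative difference, and the list summed to 5.90, 6.60 and 2.71 RPKM in WT 1, 2 and 3 and to 3.99, 1.70 and 2.84 in KI 1, 2 and 3. The tested genes were Dcn, also a mesenchyme marker, at 2.57, 3.46 and 0.973 in WT 1, 2 and 3 and at 1.58, 0.579 and 0.996 in KI 1, 2 and 3, and Wnt4 (difference -0.05). Like Col1a1 and Col1a2, Dcn was higher in WT 1 and WT 2 than in the other 4 libraries, and the part of this in the collagen values was not tested. In the same list 4 granzyme genes were listed at 0 in every library, and Prl8a2, a decidual prolactin, did not exceed 0.320 RPKM. Prl3c1, Pgr and Hand2 reached at most 0.242, 0.114 and 0.972. Hoxa11 was at 0.361, 0.724 and 0.0645 in WT 1, 2 and 3. In KI 1, 2 and 3 it was at 0.152, 0 and 0.0379. Esr1 had 7, 8 and 4 reads in WT 1, 2 and 3, against 1, 0 and 3 in KI. Its groups were separate, lower in KI, as in 2.73% of untested genes with a value above 0. Among 10 sclerotome, cartilage and notochord markers 5 were tested and 0 passed (3 positive, 2 negative). T was at 6.94, 7.22 and 6.24 RPKM in WT 1, 2 and 3 and at 12.5, 7.57 and 8.58 in KI 1, 2 and 3. Its groups were separate, higher in KI, as in 3.8% of all tested genes (limma adjusted p = 0.999). Sox9, a regulator of Col2a1, was at 11.7, 12.1 and 11.8 RPKM in WT 1, 2 and 3 and at 15.9, 14.2 and 11.8 in KI 1, 2 and 3, while Acan of mature cartilage did not exceed 0.116 and Matn1 was listed at 0 throughout.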

How the data were processed

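Oligo(dT) beads and a SMARTER mRNA-seq kit were used for 3 WT and 3 KI embryo libraries, per the labels' protocols. The labels call the deposited table raw counts, but its values are RPKM, judged from the values. The submitters' processing notes name the build GRCm39. The aligner, counter, annotation and strand use are not given in the sources used here. Collagen members, classes, lists and tests were chosen with earlier results of these data known. Of rows sharing a symbol, the one with the highest mean was used (22 rows dropped).

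Multiplied by merged exon length in GENCODE M21 (build GRCm38, used for lengths, chromosomes and overlaps), the deposited RPKM fell on multiples of 1 step per library, which gave the depths. Of values under 2000 reads, 97.9% to 98% came out whole within 0.05, for 41 of 44 collagen genes in all libraries. Limits from read counts cover counting error only.

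Since the deposited unit was RPKM, KI was tested against WT with limma 3.58.1 (R 4.3.3), after a log2(RPKM + 1) transform of the deposited values, with a mean-variance trend and robust prior, on genes with 1 RPKM in at least 3 libraries. The steps were tested on simulated data without outlying libraries such as WT 3 and KI 2, so that test does not give their power here. Alternatives were TMM scaling, a pseudocount of 0.1, no filter, limma-voom, a replicate block, library weights, leaving out each library or both WT 3 and KI 2, and a Y-linked covariate. Values per library were to be given for members with a mean of 20 RPKM, separate groups or a call with or without WT 3 and KI 2, and for the 4 highest genes of a pathway list and any with separate groups or a call. They were given for all tested members, a choice made after values were seen, as were the other genes named.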

Additional observations from a re-analysis of the deposited data

How the results depend on the processing

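By limma, 0 genes were called over all 6 libraries, and 0 with TMM scaling, a pseudocount of 0.1, no filter, limma-voom, the replicate block, the Y-linked covariate or any 1 library left out (0 to 0, collagen genes 0 to 0). Library weights gave 93 calls and leaving out both WT 3 and KI 2 gave 41, each with 2 collagen genes, Col1a1 and Col3a1, and 24 genes were called both ways. At an unadjusted p under 0.05 the count was 121, and 62 to 457 with a library left out. The median collagen difference was -0.27 to 0.14 with a library left out and -0.27 without both WT 3 and KI 2, where 12 of 14 were negative in place of 8. Col1a1, Col4a1, Col4a5 and Col5a2 kept their sign in all 14 alternatives, while the other 10 tested members turned in at least 1, for causes not tested. Without WT 3 and KI 2 the turned values were Col11a1 (-0.19), Col18a1 (-0.11), Col23a1 (-0.29), Col2a1 (-0.13), Col4a2 (-0.36) and Col4a6 (0.067). With library weights they were Col11a1 (-0.042), Col23a1 (-0.14), Col2a1 (-0.020), Col4a2 (-0.44) and Col4a6 (0.10). The Y-linked covariate turned Col18a1 (-0.22) and Col3a1 (0.26), TMM scaling Col18a1 (-0.058), the pseudocount Col26a1 (0.062) and limma-voom Col26a1 (0.11). With 1 library left out the ranges were Col11a1 -0.11 to 0.31, Col18a1 -0.26 to 0.16, Col1a2 -0.41 to 0.11, Col23a1 -0.18 to 0.45, Col26a1 -0.29 to 0.18, Col2a1 -0.010 to 0.56, Col3a1 -0.67 to 0.14, Col4a2 -0.29 to 0.29, Col4a6 -0.076 to 0.034 and Col9a1 -0.60 to 0.057. Leaving out WT 1 turned Col1a2, Col26a1, Col3a1, Col4a6 and Col9a1. Leaving out WT 2 turned Col1a2, Col26a1 and Col3a1. Leaving out WT 3 turned Col18a1, Col23a1, Col2a1, Col4a2 and Col4a6. Leaving out KI 1 turned Col18a1. Leaving out KI 2 turned Col11a1, Col26a1, Col4a2 and Col4a6. Leaving out KI 3 turned Col3a1. The Col1a1 to Col1a2 log2 ratio difference was -0.84 to -0.47 with a library left out and -0.57 without both WT 3 and KI 2. That of Col4a1 to Col4a2 was -0.39 to 0.49 with a library left out (positive without WT 3, KI 2 or KI 3), 0.073 with a pseudocount of 1 and 0.53 without both. Deviations of libraries with the same number were little correlated (r = 0.12, -0.051 and 0.0054). They include those of WT 3 and KI 2, which stood apart, so they cannot decide whether the number pairs libraries. With the replicate block 0 genes were called, 139 had an unadjusted p under 0.05, and the ratio differences were -0.70 (exact sign-flip p = 0.25, the smallest that 3 pairs allow) and -0.025. Depth limits the low members, since 1 read over 5 kb was worth up to 0.0205 RPKM.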
